A study of Homo sapiens with 9 samples.

Results

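The cytochrome P450 family was examined in HepG2 cells, a line derived from a human liver tumour that keeps many features of hepatocytes. Its members were taken as all genes whose symbol on the array platform followed the P450 naming scheme, CYP with a family number, a subfamily letter and a gene number. CYP51A1, the sterol demethylase of cholesterol synthesis, was not included. The choice used names only and no measured value, and it gave 49 of the 17687 genes tested. The cells were untreated or had received recombinant SPARC for 24 h at a dose of 200 or 800 ng/ml, with 3 arrays for each of these 3 groups. SPARC is a glycoprotein of the extracellular matrix, and the series asks how it affects gene expression in these cells. The labels do not name a vehicle for the untreated cells, and no label says whether the arrays of a group came from separate cultures. Every p-value therefore rests on the spread between arrays alone, and that spread may be technical. All groups are 1 tumour line grown in culture, and the labels name no other agent. A lower signal can come from fewer cells that express a gene or from less RNA per cell, and these cannot be told apart here.

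Cytochrome P450 enzymes are haem proteins that insert an oxygen atom into their substrates, using electrons from NADPH passed on by a reductase or, in mitochondria, by ferredoxin. Families CYP1, CYP2 and CYP3 hold the main drug and toxin oxidising enzymes of the liver, and many of them are induced through the aryl hydrocarbon receptor AHR or the nuclear receptors PXR and CAR. Family CYP4 hydroxylates fatty acids and eicosanoids, and the other families make or remove bile acids, steroid hormones, vitamin D and retinoic acid. HepG2 cells are known for low activity of many drug-oxidising P450 enzymes compared with fresh hepatocytes.

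The values are log2 signals of 1 transcript cluster per gene, so that a difference of 1 is a doubling. The table used here holds no detection calls, and signals of different genes depend on their probes. Levels are therefore compared between arrays for the same gene and not between genes. Of the 49 members, 18 belong to the drug-oxidising families 1 to 3 and 12 to the fatty acid hydroxylases of family 4. Bile acid and oxysterol metabolism holds 6 members, steroid hormone synthesis 5, retinoid metabolism 4 and vitamin D metabolism 3, and CYP20A1 is an orphan without an established substrate. Subfamilies such as CYP2A, CYP3A, CYP4A, CYP4F and CYP11B hold close paralogs, and the values of their single members are uncertain where probes bind more than 1 of them.

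Hepatocyte features were followed across the arrays on 7 markers, ALB, AFP, APOA1, TTR, SERPINA1, FGB and TF. Without a reference sample, these markers cannot test the origin of the line. Their mean signal was 10.02 to 10.35 in untreated arrays, 10.21 to 10.30 at 200 ng/ml and 10.33 to 10.39 at 800 ng/ml. Untreated replicate 2 stood apart, with a correlation of 0.889 to 0.919 with the other 8 arrays across all genes, against 0.979 to 0.991 among those 8. The mean signal of neural and glial markers, of which 9 of 10 were measured, set 800 ng/ml replicates 2 and 3 apart. It was 4.12 to 4.63 in untreated arrays, 4.13 to 4.37 at 200 ng/ml, and 4.25, 5.87 and 5.87 in replicates 1 to 3 at 800 ng/ml. GFAP, NTRK2, SPARCL1, NCAM1, GPM6A and S100B were higher in 800 ng/ml replicates 2 and 3 than in every other array. MBP, SNAP25 and AQP4 were not. Differences from untreated cells are given with and without untreated replicate 2.

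No P450 gene passed the test at either dose or between the doses. At 800 ng/ml against untreated cells, 0 of 49 members had an adjusted p under 0.05 (limma, Benjamini-Hochberg over all genes), and the share over all genes was 0%. At an unadjusted p under 0.05 there were 3 members, CYP4A11, CYP2D6 and CYP17A1, or 3 of 49 against 4.17% of all genes. At 200 ng/ml against untreated cells there were 0 members by either measure, with 0% and 1.78% of all genes. At 800 against 200 ng/ml there were 0 members by adjusted p and 2 by unadjusted p, CYP2C8 and CYP2D6, with 0% and 2.41% of all genes. The smallest adjusted p over the members was 0.659, 0.966 and 0.999 in the same order. For the median member the 95% interval extended 0.58 to each side on the log2 scale, which is 1.5-fold. This interval is not adjusted for the number of genes, and a call after adjustment needs a larger change.

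The family leaned to lower values at both doses when all 9 arrays were used. The log2 difference from untreated cells was negative for 34 of 49 members at 800 ng/ml, with a median of −0.16 against 0.04 over all genes. It was also negative for 34 of 49 members at 200 ng/ml, with a median of −0.11 against 0.03 over all genes. Both comparisons share the untreated arrays. The mean signals of marker lists of other cell types were also higher in untreated replicate 2 than in replicates 1 and 3. The mean signal of 6 of 7 fibroblast markers was 5.25, 5.98 and 5.21 in untreated replicates 1 to 3, 5.33 to 5.49 at 200 ng/ml and 5.26 to 5.28 at 800 ng/ml. That of 5 endothelial markers was 4.03, 4.76 and 4.28 in untreated arrays, 4.23 to 4.26 at 200 ng/ml and 4.05 to 4.33 at 800 ng/ml. That of 7 blood and Kupffer cell markers was 5.78, 6.65 and 5.95 in untreated arrays, 5.98 to 6.06 at 200 ng/ml and 5.95, 5.90 and 6 at 800 ng/ml. Single markers of these lists went both ways. ACTA2, CD68 and LYZ were lower in untreated replicate 2 than in replicates 1 and 3. CDH5 and KDR lay between those replicates, and the other measured markers were higher. Over all genes, the standard deviation of signals was 1.64 in untreated replicate 2, against 1.98 and 1.99 in untreated replicates 1 and 3. Genes with a mean under 5.5 in the other 8 arrays were mostly higher in that array, with a median deviation of 0.46. Those at or over 5.5 were mostly lower, with −0.72. ACTA2, CD68 and LYZ had means over 5.5, but so did COL1A1, COL1A2 and VWF, which were higher. Whether the markers follow this pattern or other cells was not tested, nor was their part in the P450 values. Without untreated replicate 2 the median was 0.01 at 800 ng/ml and 0.00 at 200 ng/ml, and 24 of 49 members were negative in each comparison. At 800 against 200 ng/ml, where no untreated array enters the difference, 30 of 49 members were negative and the median was −0.07 against 0.01 over all genes. Without 800 ng/ml replicates 2 and 3, the member median was −0.04 against untreated cells and 0.06 against 200 ng/ml, with 0 calls.

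Untreated replicate 2 was the highest of the 9 arrays for 25 of 49 members and the lowest for 7, against 32.5% and 41.7% of all genes. Members whose mean signal in the other 8 arrays was under 5.5 were mostly higher in this array than in untreated replicates 1 and 3, in 30 of 37 cases, with a median of 0.46. Of the members at or over 5.5, 9 of 12 were lower in it, with a median of −0.36. All genes had medians of 0.46 and −0.72 in the same signal classes. The largest deviations upward belonged to CYP27B1 and CYP11A1, at 1.74 each, and the largest downward to CYP4V2 and CYP7A1, at −1.68 and −1.51. The median signal over the 49 members was 4.28, 5.05 and 4.23 in untreated replicates 1, 2 and 3, 4.35 to 4.40 at 200 ng/ml and 4.09 to 4.38 at 800 ng/ml.

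**Figure D1:**
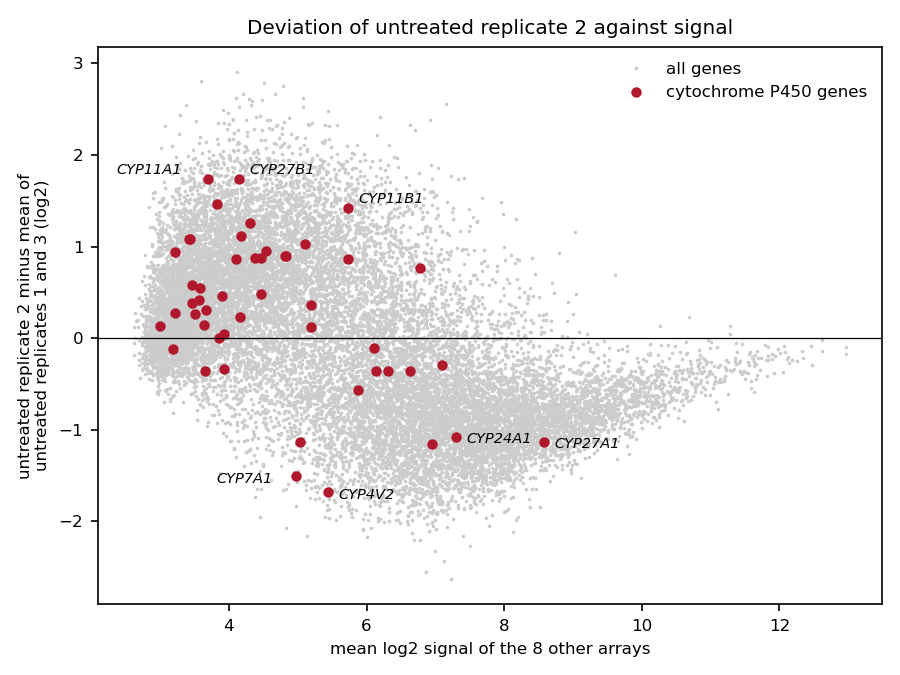
Deviation of untreated replicate 2 from the mean of untreated replicates 1 and 3 (log2, y axis) against the mean log2 signal of the 8 other arrays (x axis), for all genes in grey and the 49 P450 genes in red. Of the P450 genes with a mean under 5.5, 30 of 37 lie above 0, and 9 of the 12 at or over 5.5 lie below it.

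Members whose groups did not overlap were counted beside the same share of all genes. At 800 ng/ml against untreated cells, 0 members were higher and 3 lower in every array (CYP2A7, CYP46A1 and CYP1B1), against 6.08% and 5.14% of all genes. At 200 ng/ml against untreated cells, 0 were higher and CYP4F22 alone was lower, against 3.92% and 3.06%. At 800 against 200 ng/ml, CYP24A1, CYP26C1 and CYP2C8 were higher in every array and CYP2D6, CYP17A1, CYP2E1, CYP4A11, CYP46A1 and CYP26A1 were lower, or 3 and 6 of 49 against 12.1% and 9.72%. Some of these margins were narrow. The closest 800 and 200 ng/ml arrays had 7.27 and 7.24 for CYP24A1, 3.47 and 3.44 for CYP2C8 and 4.21 and 4.22 for CYP17A1. For CYP26C1 both were 4.92 after rounding. Without untreated replicate 2, 1 member was higher and 6 lower at 800 ng/ml, against 10.5% and 11.8% of all genes. At 200 ng/ml, 7 were then higher and 8 lower, against 13.8% and 17.7%. In that fit the members with an unadjusted p under 0.05 numbered 1 at 800 ng/ml (5.36% of all genes), 8 at 200 ng/ml (11.3%) and 11 between the doses (15.3%), and 0 passed after adjustment (limma).

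**Figure D2:**
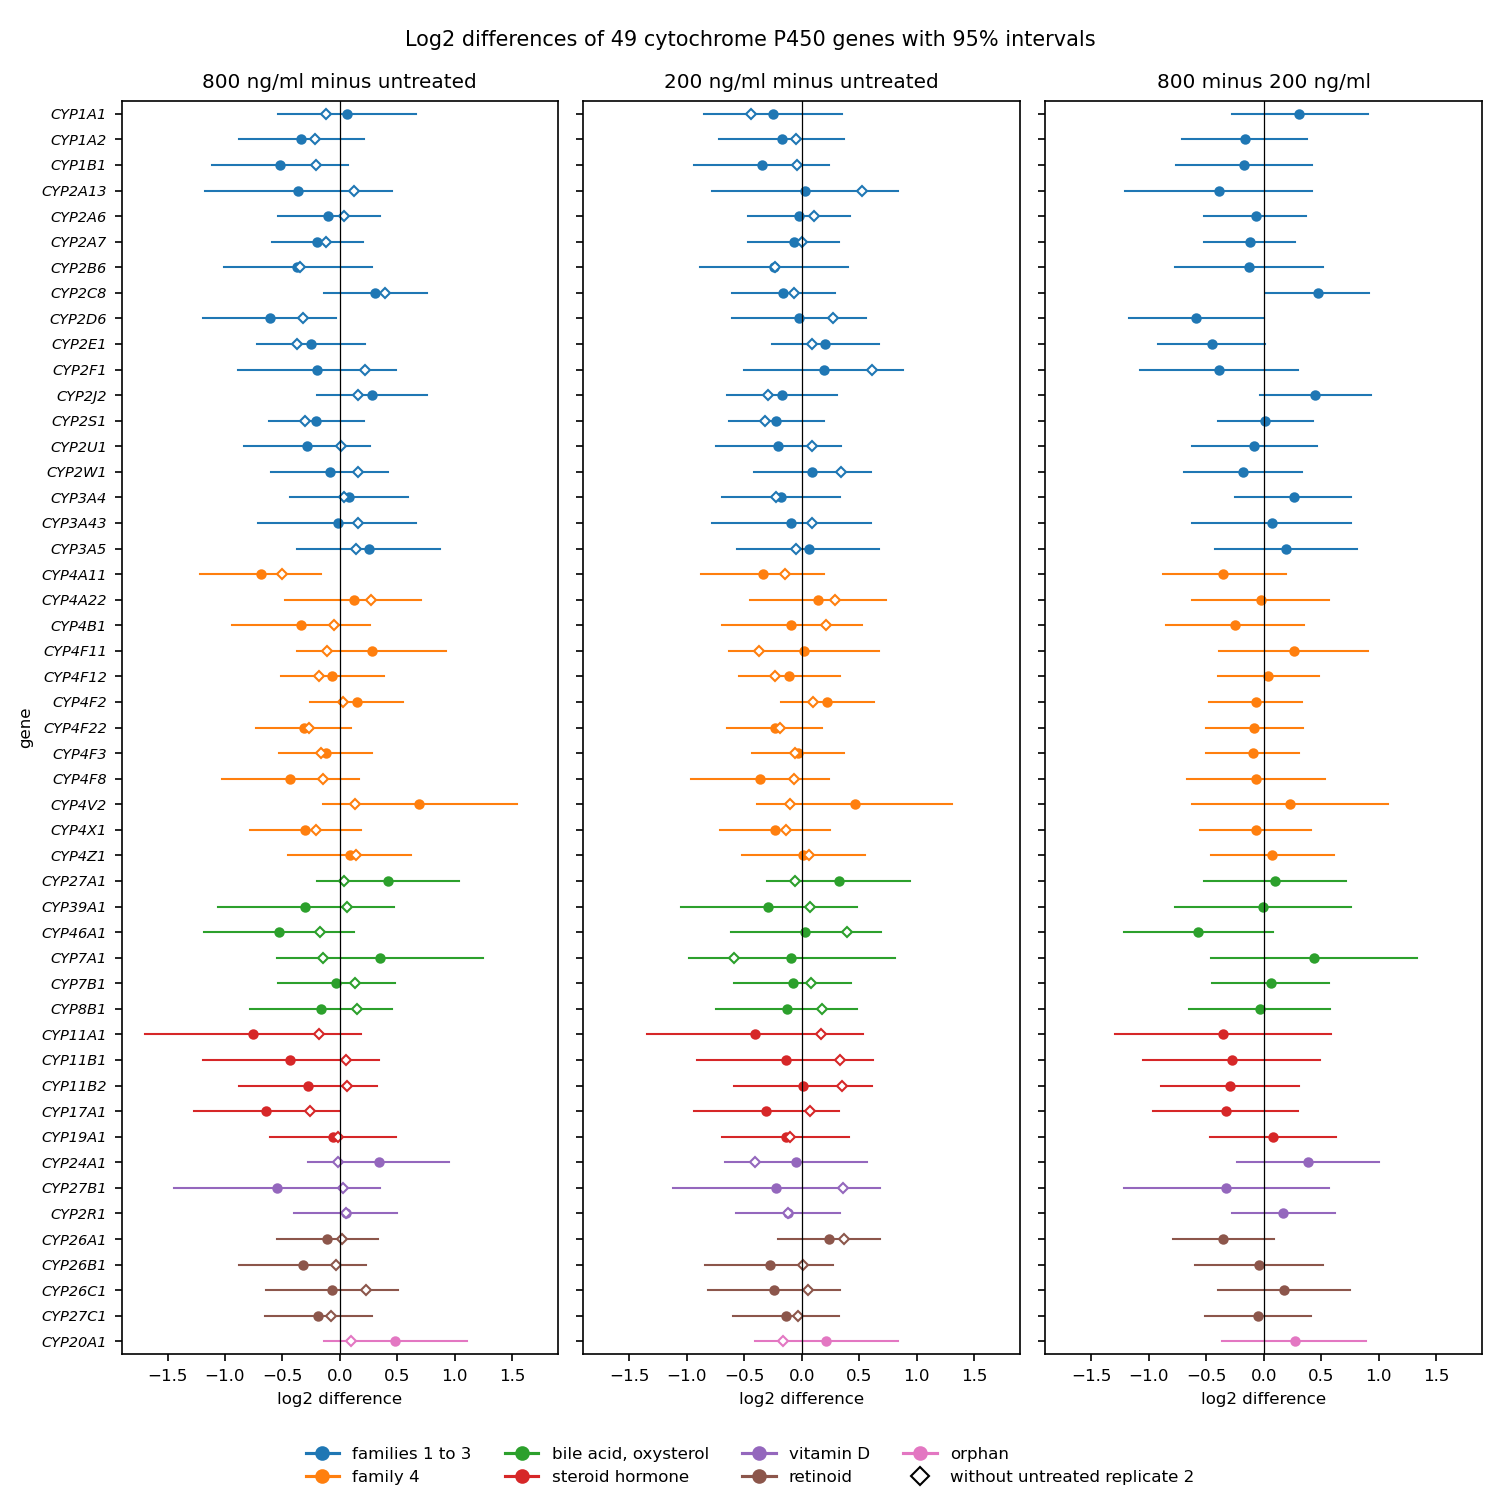
Log2 difference (x axis) of each of the 49 P450 genes (y axis, coloured by role) for 800 ng/ml minus untreated, 200 ng/ml minus untreated and 800 minus 200 ng/ml. Filled points are the differences from all 9 arrays with 95% intervals as lines, and open diamonds are the differences without untreated replicate 2. Most intervals include 0, and many diamonds in the untreated comparisons lie closer to 0 than the filled points or on its other side.

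Among the drug-oxidising families, CYP1A1, CYP1A2, CYP1B1 and CYP2S1 are known to be induced through AHR, a ligand-activated transcription factor. CYP1A1 and CYP1A2 oxidise polycyclic and aromatic compounds, are neighbours on chromosome 15 and are read from opposite strands. The 150 bases upstream of their annotated starts, and those of CYP2S1 on chromosome 19, are shown because these genes share a regulator. They were taken from RefSeq on GRCh38.p14, 5′ to 3′ on the strand of the gene. The intervals are chr15:74725529-74725678 on the minus strand for CYP1A1, chr15:74748695-74748844 on the plus strand for CYP1A2 and chr19:41193069-41193218 on the plus strand for CYP2S1. Capitals mark the core of the xenobiotic response element bound by AHR (GCGTG, either strand), the TATA box (TATAAA, strand of the gene) and the GC box (GGGCGG, either strand, so CCGCCC on the other).
CYP1A1: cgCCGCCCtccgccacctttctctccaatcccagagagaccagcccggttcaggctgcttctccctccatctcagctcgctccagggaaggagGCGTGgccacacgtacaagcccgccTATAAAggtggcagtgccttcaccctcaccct
CYP1A2: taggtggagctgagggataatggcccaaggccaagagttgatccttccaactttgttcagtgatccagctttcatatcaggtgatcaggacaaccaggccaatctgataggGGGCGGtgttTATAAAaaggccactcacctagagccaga
CYP2S1: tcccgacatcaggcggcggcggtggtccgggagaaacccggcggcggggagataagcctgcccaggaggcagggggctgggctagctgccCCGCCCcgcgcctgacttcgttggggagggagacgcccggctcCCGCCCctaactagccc
In these stretches CYP1A1 has a response element core that begins 57 bases before the start and a TATA box that begins 32 bases before it. CYP1A2 has a TATA box that begins 29 bases before its start and no response element core in the window. CYP2S1 has 2 GC boxes and neither of the other motifs. No matches overlapped. Promoter windows were matched for 35 of the 49 members, with 48 windows of 250 upstream bases in all. The response element core was in 20.8% of them and in 32.2% of all RefSeq windows, the TATA box in 29.2% against 6.8% and the GC box in 37.5% against 42.6%. A match of letters is a description and does not show that a factor binds.

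CYP1A1 had signals of 6.22, 5.52 and 5.96 in untreated replicates 1 to 3, 5.19, 5.87 and 5.89 at 200 ng/ml and 6.26, 5.57 and 6.06 at 800 ng/ml. The groups overlapped, and in each SPARC group 1 array was low, replicate 1 at 200 ng/ml and replicate 2 at 800 ng/ml. CYP1A2 had 5.26, 5.65 and 5.31 in untreated cells, 4.87, 5.47 and 5.36 at 200 ng/ml and 5.43, 4.65 and 5.14 at 800 ng/ml. The same 2 SPARC arrays were lowest, a pattern noticed after the values were seen. It was met by 6 of 49 members, CYP1A1, CYP1A2, CYP2S1, CYP2A13, CYP3A43 and CYP19A1 (12.2%), and by 12.8% of all genes. The log2 difference of CYP1A1 was 0.06 ± 0.27 (SE) at 800 ng/ml and −0.25 ± 0.27 at 200 ng/ml, and that of CYP1A2 was −0.34 ± 0.25 and −0.17 ± 0.25. With untreated replicate 2 left out, the sign for CYP1A1 turned at 800 ng/ml, to −0.12 ± 0.25, and the difference at 200 ng/ml was −0.44 ± 0.25, with groups that no longer overlapped. That of CYP1A2 was then −0.22 ± 0.24 and −0.05 ± 0.24. Without untreated replicate 2, 17.7% of all genes were lower with no overlap at 200 ng/ml, as CYP1A1 was.

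CYP2S1, which oxidises retinoids and arachidonic acid products, had 7.47, 7.03 and 7.17 in untreated cells, 6.89, 7.05 and 7.07 at 200 ng/ml and 7.10, 6.89 and 7.07 at 800 ng/ml. All 6 SPARC arrays lay below untreated replicates 1 and 3, while untreated replicate 2 lay among them. The log2 difference from untreated cells was −0.21 ± 0.19 (SE) at 800 ng/ml and −0.22 ± 0.19 at 200 ng/ml (limma, adjusted p 0.661 at 800 ng/ml and 0.966 at 200 ng/ml). With that array left out it was −0.30 ± 0.14 and −0.32 ± 0.14. CYP1B1, which oxidises oestradiol and aromatic hydrocarbons, had 3.21, 4.25 and 3.41 in untreated cells, 3.53, 3.06 and 3.24 at 200 ng/ml and 2.91, 3.21 and 3.20 at 800 ng/ml. Its 800 ng/ml arrays all lay below the untreated arrays, but 800 ng/ml replicate 2 and untreated replicate 1 were nearly equal. The difference was −0.52 ± 0.27 with untreated replicate 2 and −0.21 ± 0.17 without it.

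**Figure D3:**
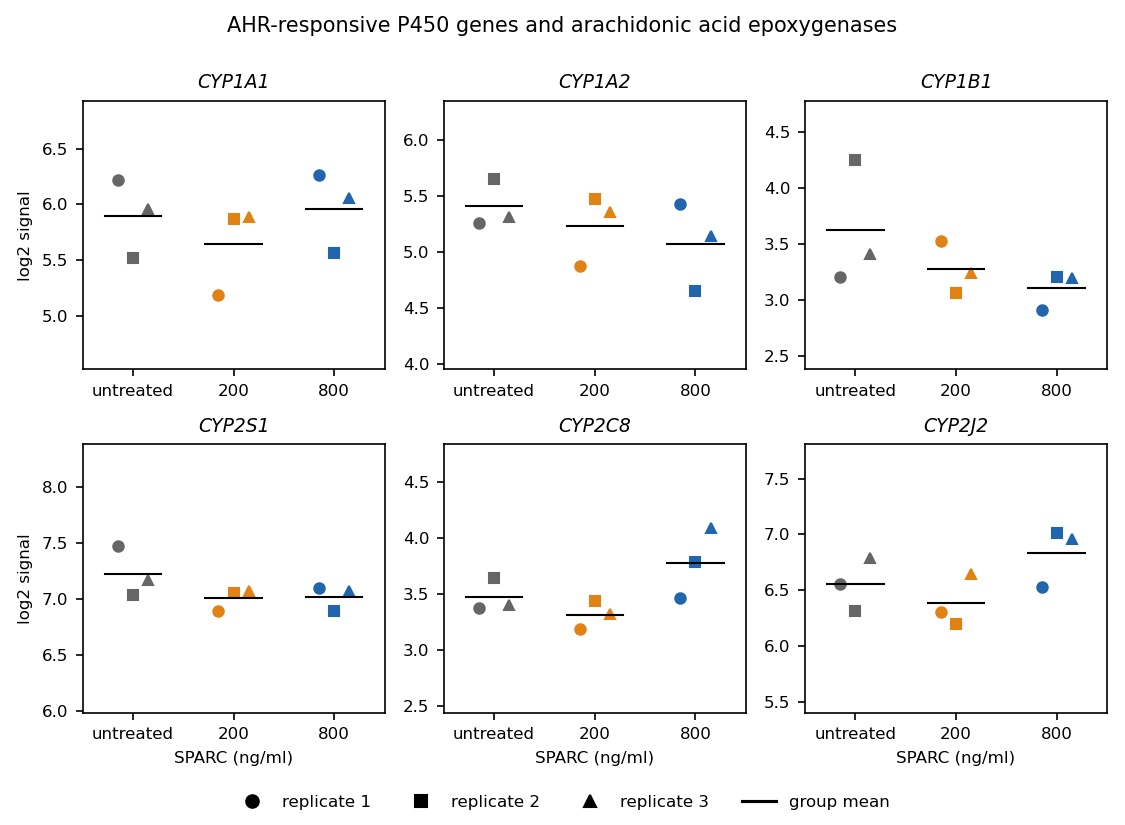
Log2 signal (y axis) of CYP1A1, CYP1A2, CYP1B1, CYP2S1, CYP2C8 and CYP2J2 in untreated cells and at 200 and 800 ng/ml SPARC (x axis). Each symbol is 1 array, its shape gives the replicate and the line is the group mean. CYP1A1 and CYP1A2 are lowest in 200 ng/ml replicate 1 and 800 ng/ml replicate 2 within the SPARC groups, and CYP2C8 is higher in all 800 ng/ml arrays than in all 200 ng/ml arrays.

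AHR itself had signals of 9.30 to 10.09 in untreated cells and 10.04 to 10.10 at 800 ng/ml, and its 200 ng/ml arrays lay within the untreated range. Of other AHR-induced genes, TIPARP, NQO1, ALDH3A1 and NFE2L2 were measured, 4 of a list of 6, and 0 passed in any comparison. ALDH3A1, an aldehyde dehydrogenase, had 5.70, 6.32 and 5.60 in untreated cells, 6.20, 5.79 and 6.04 at 200 ng/ml and 4.99, 5.62 and 5.43 at 800 ng/ml. Its 800 ng/ml arrays all lay below its 200 ng/ml arrays, as in 9.72% of all genes. The log2 difference was −0.66 ± 0.25 (SE) at 800 against 200 ng/ml, with a standard error of 0.17 on the other 8 arrays. NQO1, a quinone reductase, had a difference of 0.10 ± 0.18 in that comparison, and TIPARP, an AHR-induced ADP-ribosyltransferase, 0.17 ± 0.26.

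CYP2C8 and CYP2J2, epoxygenases of arachidonic acid, were among the 5 members with the smallest p between the doses. The 150 bases upstream of their starts are given, from the same source and build and with the same marks, because both are epoxygenases with the highest differences of that comparison, a choice made after the values were seen. The intervals are chr10:95069498-95069647 on the minus strand for CYP2C8 and chr1:59926774-59926923 on the minus strand for CYP2J2.
CYP2C8: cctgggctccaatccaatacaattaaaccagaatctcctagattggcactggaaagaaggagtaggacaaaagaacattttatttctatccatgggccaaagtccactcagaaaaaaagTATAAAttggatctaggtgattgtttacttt
CYP2J2: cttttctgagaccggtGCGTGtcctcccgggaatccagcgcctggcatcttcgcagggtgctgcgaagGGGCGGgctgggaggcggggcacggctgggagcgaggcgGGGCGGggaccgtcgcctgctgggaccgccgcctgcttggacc
The stretch of CYP2C8 holds a TATA box and has a G and C content of 37.3%, whereas that of CYP2J2 holds no TATA box, 2 GC boxes and 1 response element core and has 73.3%. CYP2C8 had signals of 3.38, 3.65 and 3.40 in untreated cells, 3.19, 3.44 and 3.32 at 200 ng/ml and 3.47, 3.79 and 4.09 at 800 ng/ml. Every 800 ng/ml array exceeded every 200 ng/ml array, and the untreated arrays lay between or among them. The log2 difference at 800 against 200 ng/ml was 0.47 ± 0.21 (SE), with an interval of 0.02 to 0.92 (limma, adjusted p = 0.999). A fit without untreated replicate 2 leaves a difference between the doses as it is and moves its error, here to 0.16 (limma, adjusted p = 0.241). CYP2J2 had 6.56, 6.32 and 6.79 in untreated cells, 6.31, 6.20 and 6.65 at 200 ng/ml and 6.53, 7.01 and 6.96 at 800 ng/ml. Here 800 ng/ml replicate 1 lay below 200 ng/ml replicate 3, and the difference was 0.45 ± 0.22 (limma, adjusted p = 0.999), with an error of 0.17 in the fit of 8 arrays (adjusted p = 0.276). Both genes were higher in 800 ng/ml replicates 2 and 3, the arrays with a high mean of neural and glial markers, than in replicate 1. That order was seen in 15 of 49 members and in 34.1% of all genes, and the part of those markers in these differences was not tested. With 800 ng/ml replicate 1 as the only array of its group, an alternative chosen after seeing the data, the difference was 0.15 for CYP2C8 and 0.14 for CYP2J2.

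CYP2D6, which oxidises many basic drugs, had 5.54, 6.61 and 5.95 in untreated cells, 6.01, 6.25 and 5.78 at 200 ng/ml and 5.23, 5.46 and 5.58 at 800 ng/ml. The 800 ng/ml arrays were all below the 200 ng/ml arrays and overlapped with untreated replicate 1. The log2 difference was −0.59 ± 0.27 (SE) against 200 ng/ml and −0.61 ± 0.27 against untreated cells (limma, adjusted p 0.999 against 200 ng/ml and 0.659 against untreated cells). On the other 8 arrays the difference from untreated cells was −0.32 ± 0.18, and the error between the doses was 0.16 (limma, adjusted p = 0.204). CYP2D6 was the only member with 2 transcript clusters. The second cluster, with the lower mean, had a difference of −0.41 between the doses and −0.16 against untreated cells, so the sign was the same and the size smaller. The CYP2D locus also holds the pseudogene CYP2D7, and which of them each cluster detects was not tested.

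CYP2E1, which oxidises ethanol and small solvents, had 3.59, 3.40 and 3.93 in untreated cells, 3.82, 3.59 and 4.12 at 200 ng/ml and 3.23, 3.51 and 3.43 at 800 ng/ml. Its 800 and 200 ng/ml arrays did not overlap. The log2 difference was −0.45 ± 0.21 (SE), and the error was 0.16 without untreated replicate 2 (limma, adjusted p = 0.254). CYP2W1, an enzyme of fetal gut that is also found in tumours, had 6.61, 7.36 and 6.57 in untreated cells, 6.94, 7.01 and 6.85 at 200 ng/ml and 6.87, 6.56 and 6.84 at 800 ng/ml. All 200 ng/ml arrays exceeded untreated replicates 1 and 3 and lay below untreated replicate 2. Without untreated replicate 2, 13.8% of all genes were higher with no overlap at 200 ng/ml. The difference at 200 ng/ml was 0.09 ± 0.23, and 0.34 ± 0.13 without that replicate (limma, adjusted p = 0.972 with all arrays). CYP2A13, a nitrosamine-oxidising enzyme of the airways, had 3.92, 5.04 and 3.24 in untreated cells, 4, 4.06 and 4.24 at 200 ng/ml and 4.05, 3.47 and 3.60 at 800 ng/ml. Its untreated arrays spanned 1.80, which covers all SPARC arrays. CYP2A7, a close relative without known activity, had 4.20, 4.43 and 4.21 in untreated cells, 4.28, 4.08 and 4.25 at 200 ng/ml and 4.18, 4.15 and 3.92 at 800 ng/ml. The 800 ng/ml arrays lay just below the untreated ones, with a difference of −0.20 ± 0.18, and −0.12 ± 0.13 on the other 8 arrays. CYP2F1, a lung enzyme, had the largest difference at 200 ng/ml without it, 0.61 ± 0.16, and 0.19 ± 0.31 with it.

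The major hepatic drug-oxidising genes gave no call either. CYP3A4, the main drug-oxidising P450 of adult liver, had 3.27, 3.13 and 3.24 in untreated cells, 3.25, 2.95 and 2.90 at 200 ng/ml and 3.79, 3.10 and 2.99 at 800 ng/ml. Replicate 1 was the high array at 800 ng/ml, and the log2 difference from untreated cells was 0.08 ± 0.23 (SE), and 0.04 ± 0.23 without untreated replicate 2. CYP3A5 had differences of 0.25 ± 0.28 at 800 ng/ml and 0.06 ± 0.28 at 200 ng/ml, and CYP3A43 −0.02 ± 0.31 and −0.09 ± 0.31. On the 8 arrays these were 0.14 ± 0.29 and −0.05 ± 0.29 for CYP3A5, and 0.16 ± 0.32 and 0.09 ± 0.32 for CYP3A43, so 3 of the 4 signs turned. CYP2B6, the classical target of the receptor CAR, had 4.16, 4.20 and 4.14 in untreated cells, 4.09, 4.35 and 3.34 at 200 ng/ml and 4.26, 3.84 and 3.29 at 800 ng/ml. Replicate 3 was the low array at both doses, and the difference at 800 ng/ml was −0.37 ± 0.29, and −0.35 ± 0.32 without untreated replicate 2. CAR itself, NR1I3, had 4.51 to 4.96 in untreated cells, 4.62 to 4.76 at 200 ng/ml and 4.39 to 4.59 at 800 ng/ml. Among the 18 members of families 1 to 3, 13 had a negative difference from untreated cells at each dose with all arrays, and 8 at 800 ng/ml and 9 at 200 ng/ml without untreated replicate 2.

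**Figure D4:**
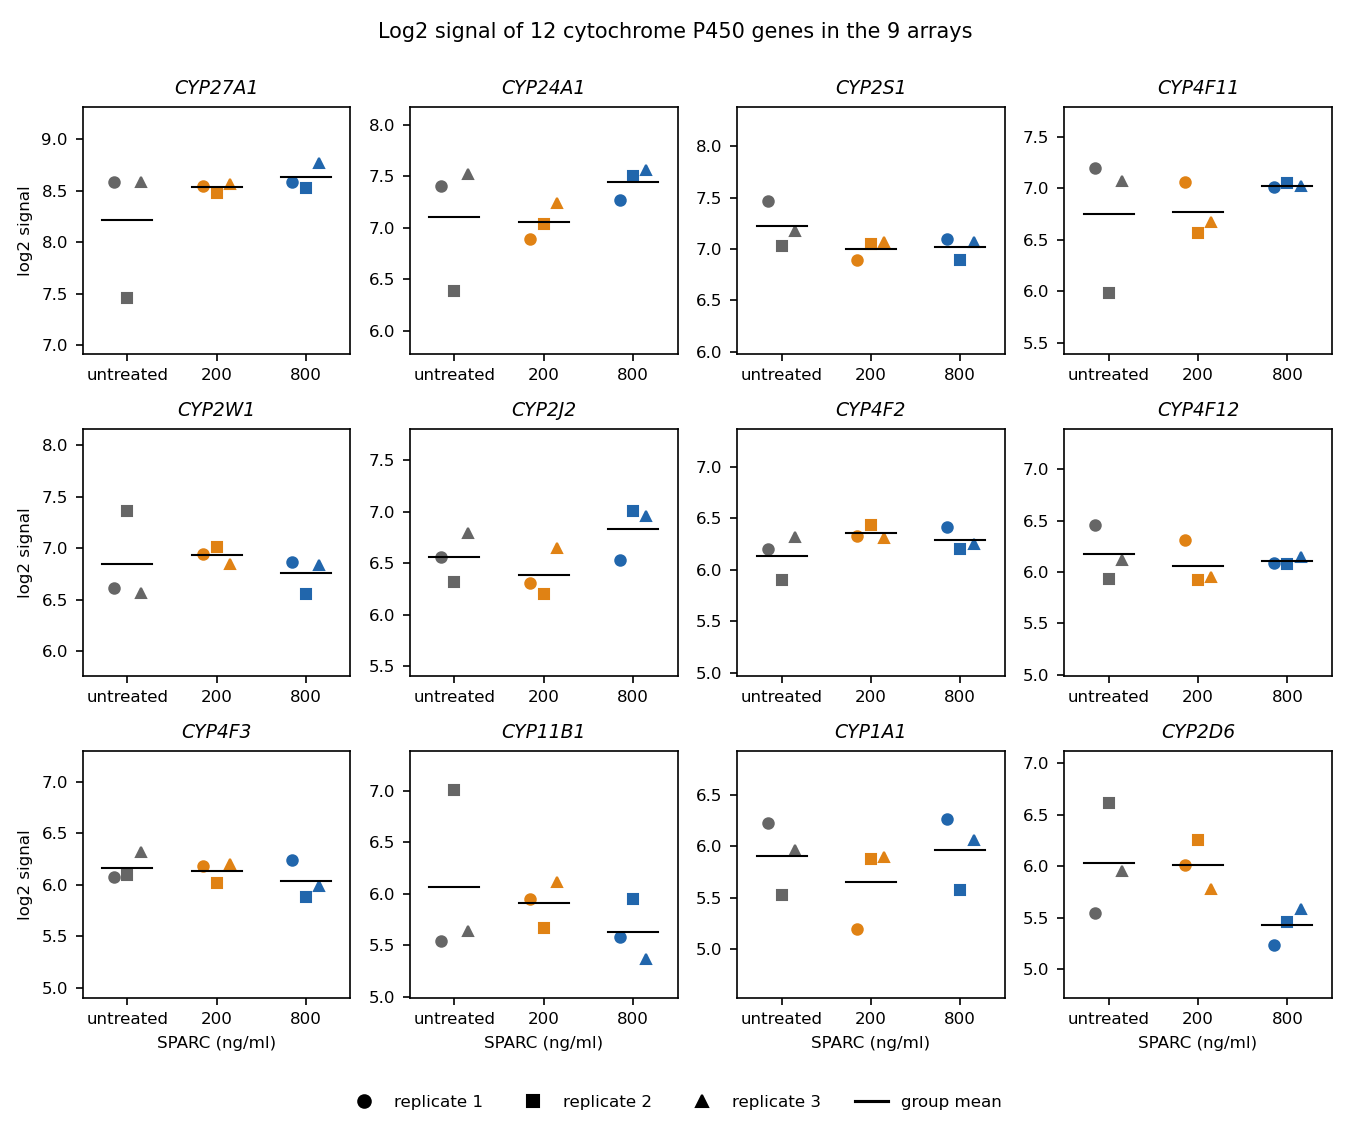
Log2 signal (y axis) of the 12 P450 genes with the highest mean over the 9 arrays, in untreated cells and at 200 and 800 ng/ml SPARC (x axis). Each symbol is 1 array, its shape gives the replicate and the line is the group mean. Untreated replicate 2 is the lowest array for CYP27A1, CYP24A1 and CYP4F11 and the highest for CYP2W1, CYP11B1 and CYP2D6, and the 800 ng/ml arrays of CYP2D6 lie below its 200 ng/ml arrays.

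Family 4 held the member with the smallest p at both doses against untreated cells. CYP4A11, the fatty acid omega-hydroxylase of liver and kidney, had 3.32, 4.29 and 4.09 in untreated cells, 3.49, 3.57 and 3.60 at 200 ng/ml and 3.21, 3.33 and 3.08 at 800 ng/ml. The untreated arrays differed by 0.96 among themselves, and untreated replicate 1 lay within the range of the SPARC arrays. The log2 difference from untreated cells was −0.69 ± 0.24 (SE) at 800 ng/ml, with an interval of −1.22 to −0.16, and −0.34 ± 0.24 at 200 ng/ml (limma, adjusted p 0.659 at 800 ng/ml and 0.966 at 200 ng/ml). With untreated replicate 2 left out it was −0.50 ± 0.20 and −0.15 ± 0.20. CYP4A22, its close paralog, had 0.12 ± 0.27 at 800 ng/ml and 0.14 ± 0.27 at 200 ng/ml, and 0.27 ± 0.26 and 0.29 ± 0.26 on the 8 arrays. PPARA, the nuclear receptor that induces CYP4A genes, had 6.12, 7.05 and 6.84 in untreated cells, 6.47 to 6.63 at 200 ng/ml and 6.31 to 6.58 at 800 ng/ml.

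The CYP4F genes lie together on chromosome 19 and hydroxylate substrates that include leukotrienes, fatty acids and vitamin K. CYP4F2 had 6.20, 5.90 and 6.32 in untreated cells, 6.33, 6.44 and 6.31 at 200 ng/ml and 6.42, 6.20 and 6.25 at 800 ng/ml. The arrays other than untreated replicate 2 lay between 6.20 and 6.44. Its difference at 200 ng/ml was 0.22 ± 0.18 with that array and 0.10 ± 0.12 without it. CYP4F11 had 7.20, 5.98 and 7.07 in untreated cells, 7.06, 6.57 and 6.67 at 200 ng/ml and 7.01, 7.05 and 7.02 at 800 ng/ml. Its 800 ng/ml arrays were close together, and 200 ng/ml replicates 2 and 3 lay below them. The log2 difference at 200 ng/ml was 0.02 ± 0.29 (SE), and −0.37 ± 0.15 without untreated replicate 2. CYP4F3 and CYP4F12 had differences from untreated cells between −0.12 and −0.03 with standard errors of 0.18 and 0.20, and between −0.23 and −0.06 on the 8 arrays, with standard errors of 0.14 and 0.16. CYP4F8 had −0.43 ± 0.27 at 800 ng/ml and −0.36 ± 0.27 at 200 ng/ml, and −0.15 ± 0.20 and −0.07 ± 0.20 without untreated replicate 2.

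CYP4F22, the ceramide-forming hydroxylase of skin, had 3.21, 3.31 and 3.14 in untreated cells, 3.13, 3.04 and 2.79 at 200 ng/ml and 2.75, 2.82 and 3.16 at 800 ng/ml. The 200 ng/ml arrays lay below all untreated arrays by a narrow margin, and the log2 difference was −0.23 ± 0.19 (SE), and −0.19 ± 0.16 without untreated replicate 2. CYP4V2, a fatty acid hydroxylase of the eye, had 5.29, 3.75 and 5.57 in untreated cells, 5.54, 5.38 and 5.08 at 200 ng/ml and 5.75, 5.45 and 5.5 at 800 ng/ml. The single low array was untreated replicate 2. The difference at 800 ng/ml was 0.69 ± 0.39 with it and 0.13 ± 0.17 without it. CYP4B1, CYP4X1 and CYP4Z1 had differences from untreated cells between −0.34 and 0.09, with standard errors of 0.22 to 0.27. That of CYP4B1 was −0.34 ± 0.27 at 800 ng/ml and −0.09 ± 0.27 at 200 ng/ml with all arrays. On the 8 arrays it was −0.05 ± 0.20 and 0.21 ± 0.20, and its 200 ng/ml arrays then all lay above the untreated ones. The same held for 13.8% of all genes. CYP4X1 had −0.21 ± 0.20 and −0.14 ± 0.20 on the 8 arrays, and CYP4Z1 0.14 ± 0.25 and 0.06 ± 0.25.

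In bile acid synthesis, CYP27A1, the mitochondrial sterol 27-hydroxylase, had 8.59, 7.46 and 8.59 in untreated cells, 8.55, 8.48 and 8.57 at 200 ng/ml and 8.59, 8.53 and 8.77 at 800 ng/ml. The 8 arrays other than untreated replicate 2 lay between 8.48 and 8.77. Its log2 difference from untreated cells was 0.42 ± 0.28 (SE) at 800 ng/ml and 0.32 ± 0.28 at 200 ng/ml, and 0.04 ± 0.12 and −0.06 ± 0.12 without that array. CYP7A1, the rate-limiting enzyme of the classical pathway, had 5.11, 3.74 and 5.39 in untreated cells, 4.19, 4.98 and 4.81 at 200 ng/ml and 4.55, 5.47 and 5.28 at 800 ng/ml. In each group 1 array was low, and untreated replicate 2 was the lowest of all. The difference at 200 ng/ml was −0.09 ± 0.41, and −0.59 ± 0.30 without that array. CYP7B1 and CYP8B1 had differences between −0.16 and −0.03, with standard errors of 0.23 and 0.28. All 4 of these turned positive without untreated replicate 2, to 0.13 ± 0.20 and 0.08 ± 0.20 for CYP7B1 and to 0.15 ± 0.19 and 0.18 ± 0.19 for CYP8B1, at 800 and 200 ng/ml. NR0B2, the small heterodimer partner that represses CYP7A1, had 8.40 to 9.28 in untreated cells, 9.12 to 9.28 at 200 ng/ml and 9.12 to 9.31 at 800 ng/ml.

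CYP46A1, the cholesterol 24-hydroxylase of neurons, had 3.41, 4.41 and 3.26 in untreated cells, 4.10, 3.67 and 3.41 at 200 ng/ml and 3.25, 3.09 and 3.13 at 800 ng/ml. The 800 ng/ml arrays were below all others, but 800 ng/ml replicate 1 and untreated replicate 3 were nearly equal. At 800 ng/ml, replicates 2 and 3, the arrays with a high mean of neural and glial markers, did not exceed replicate 1. The part of those markers in the CYP46A1 values was not tested. The log2 difference at 800 ng/ml was −0.57 ± 0.30 (SE) against 200 ng/ml and −0.53 ± 0.30 against untreated cells (limma, adjusted p 0.999 against 200 ng/ml and 0.659 against untreated cells). On the other 8 arrays it was −0.17 ± 0.19 against untreated cells, and the error between the doses was 0.17 (limma, adjusted p = 0.213). CYP39A1, an oxysterol 7-hydroxylase, had differences from untreated cells of −0.30 ± 0.35 at 800 ng/ml and −0.29 ± 0.35 at the lower dose. Both turned on the 8 arrays, to 0.06 ± 0.29 and 0.07 ± 0.29.

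Of the genes of steroid hormone synthesis, 0 of 5 passed. At 800 ng/ml, 5 of 5 had negative differences from untreated cells with all arrays and 3 of 5 without untreated replicate 2. At 200 ng/ml, 4 of 5 were negative with all arrays but 1 of 5 without that array. CYP11B2 had a log2 difference at 200 ng/ml of 0.01 ± 0.27 (SE) with all arrays and 0.35 ± 0.14 without untreated replicate 2. CYP17A1, the 17-hydroxylase and lyase of androgen synthesis, had 4.33, 5.36 and 4.17 in untreated cells, 4.39, 4.33 and 4.22 at 200 ng/ml and 4.21, 3.79 and 3.95 at 800 ng/ml. Its 800 ng/ml arrays lay below the 200 ng/ml arrays, though replicate 1 at 800 ng/ml and replicate 3 at 200 ng/ml were nearly equal. The log2 difference from untreated cells at 800 ng/ml was −0.64 ± 0.29 (SE), and −0.26 ± 0.14 without untreated replicate 2 (limma, adjusted p = 0.659 with all arrays). CYP11A1, which cleaves the cholesterol side chain, had 3.79, 5.44 and 3.60 in untreated cells, 4.48, 3.52 and 3.60 at 200 ng/ml and 3.39, 3.45 and 3.72 at 800 ng/ml. Untreated replicate 2 and 200 ng/ml replicate 1 were its high arrays. CYP11B1, which makes cortisol, had 5.54, 7.01 and 5.64 in untreated cells, 5.95, 5.67 and 6.12 at 200 ng/ml and 5.58, 5.95 and 5.37 at 800 ng/ml. CYP19A1, the aromatase, had 5.37, 5.36 and 5.11 in untreated cells, 4.96, 5.32 and 5.16 at 200 ng/ml and 5.42, 4.65 and 5.59 at 800 ng/ml. Its differences from untreated cells were −0.06 ± 0.25 at 800 ng/ml and −0.14 ± 0.25 at 200 ng/ml, and −0.02 ± 0.25 and −0.10 ± 0.25 on the 8 arrays.

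In vitamin D metabolism, CYP24A1, the 24-hydroxylase that inactivates the hormone, had 7.41, 6.39 and 7.52 in untreated cells, 6.89, 7.04 and 7.24 at 200 ng/ml and 7.27, 7.5 and 7.56 at 800 ng/ml. All 800 ng/ml arrays exceeded all 200 ng/ml arrays, and untreated replicates 1 and 3 lay with the 800 ng/ml arrays. The log2 difference between the doses was 0.39 ± 0.28 (SE) in the fit of all arrays (limma, adjusted p = 0.999), with an error of 0.13 without untreated replicate 2 (adjusted p = 0.241). The difference at 200 ng/ml against untreated cells was −0.05 ± 0.28, and −0.41 ± 0.14 without untreated replicate 2. CYP27B1, which activates vitamin D, had 4.23, 5.74 and 3.76 in untreated cells, 4.32, 4.03 and 4.73 at 200 ng/ml and 3.95, 4.09 and 4.05 at 800 ng/ml. Its untreated arrays spanned 1.97, the widest range of any member within a group. CYP2R1, the 25-hydroxylase of liver, had a difference of 0.05 ± 0.21 at 800 ng/ml and −0.12 ± 0.21 at the lower dose, with the same differences and errors of 0.19 on the 8 arrays. The vitamin D receptor, VDR, had 4.08, 5.67 and 4.24 in untreated cells, 4.46 to 4.64 at 200 ng/ml and 3.89 to 4.53 at 800 ng/ml.

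The genes of retinoic acid and retinoid metabolism gave 0 calls of 4. CYP26A1, which clears retinoic acid and is induced by it, had 3.30, 3.71 and 3.34 in untreated cells, 3.96, 3.64 and 3.46 at 200 ng/ml and 3.40, 3.38 and 3.24 at 800 ng/ml. The 200 ng/ml arrays exceeded the 800 ng/ml arrays, and the log2 difference was −0.35 ± 0.20 (SE) for 800 against 200 ng/ml, with an error of 0.14 on the 8 arrays (limma, adjusted p = 0.286). CYP26C1 ran the other way between the doses, with 4.92, 4.63 and 4.75 at 200 ng/ml and 4.97, 4.92 and 4.94 at 800 ng/ml, and had 4.97, 5.61 and 4.46 in untreated cells. CYP26B1 had −0.32 ± 0.25 at 800 ng/ml and −0.28 ± 0.25 at 200 ng/ml, and −0.03 ± 0.14 and 0.01 ± 0.14 without untreated replicate 2. RARA, a retinoic acid receptor, had 7.62 to 7.77 in untreated cells, 7.73 to 7.85 at 200 ng/ml and 7.54 to 7.74 at 800 ng/ml. CYP27C1, a retinoid desaturase, had −0.19 ± 0.21 at 800 ng/ml and −0.14 ± 0.21 at the lower dose, and −0.08 ± 0.18 and −0.03 ± 0.18 on the 8 arrays. The orphan CYP20A1 had 5.03, 3.92 and 5.07 in untreated cells, 4.88, 4.81 and 4.98 at 200 ng/ml and 5.29, 5.22 and 4.96 at 800 ng/ml, again with untreated replicate 2 as the low array.

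Genes that serve the P450 enzymes were taken from lists chosen by function. Of 10 redox partners and haem supply genes 6 were measured, CYB5A, CYB5B, CYB5R3, FDX1, PGRMC2 and ALAS1, and 0 passed in any comparison. With all arrays, 6 of 6 were higher at 800 ng/ml than in untreated cells, with a median log2 difference of 0.27. Without untreated replicate 2 the median was −0.05. At 200 ng/ml, 5 of 6 were higher with all arrays, with a median of 0.15. Without untreated replicate 2, 0 of 6 were higher at 200 ng/ml, with a median of −0.1. CYB5B then had −0.42 ± 0.10 (SE) and CYB5A −0.24 ± 0.12, against −0.08 ± 0.26 and 0.11 ± 0.27 with all arrays. ALAS1, the first enzyme of haem synthesis, had 6.76, 5.41 and 7.07 in untreated cells, 6.80 to 6.96 at 200 ng/ml and 6.72 to 7.04 at 800 ng/ml. Of 21 transcriptional regulators 15 were measured, and 0 passed. Their median difference was 0.09 at 800 ng/ml and 0.17 at 200 ng/ml, and 0.04 and 0.06 without untreated replicate 2. CEBPA, a liver-enriched factor, had the smallest p among them at 200 ng/ml, with a difference of 0.47 ± 0.24 (SE), and 0.34 ± 0.22 on the 8 arrays. ONECUT1, another such factor, followed with 0.30 ± 0.24, and 0.04 ± 0.13 on the 8 arrays. NR1H3, the oxysterol receptor LXR alpha, had 6.76, 8.51 and 6.67 in untreated cells, and its difference of −0.44 ± 0.41 turned to 0.16 ± 0.16 without untreated replicate 2.

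The P450 genes that the naming rule leaves out also gave 0 calls of 3. CYP51A1 had a log2 difference from untreated cells of 0.31 ± 0.27 (SE) at 800 ng/ml and 0.03 without untreated replicate 2. TBXAS1, the thromboxane synthase, had −0.23 ± 0.29 and 0.16. PTGIS, the prostacyclin synthase, had 4.06, 4.91 and 4.47 in untreated cells, 3.71, 4.04 and 4.01 at 200 ng/ml and 3.79, 3.99 and 3.70 at 800 ng/ml. All 6 SPARC arrays of PTGIS lay below all untreated arrays, but 200 ng/ml replicate 2 and untreated replicate 1 were nearly equal. The share of all genes with this pattern is not given here. Its difference was −0.66 ± 0.23 at 800 ng/ml and −0.56 ± 0.23 at 200 ng/ml, and −0.44 and −0.34 without untreated replicate 2. It did not pass (limma, adjusted p 0.659 at 800 ng/ml and 0.966 at 200 ng/ml).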

How the data were processed

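RNA of 9 HepG2 samples was labelled with biotin and hybridised to 1-colour arrays, per the labels' protocols. The deposited values are 1 number per transcript cluster and array and were taken as log2 signals from their range, since no source used here names the scale. The submitters' processing notes name R 3.0. How background was corrected and arrays were normalized is not given in the sources used here. No further normalization was applied, and precision is limited by the number of arrays.

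Of 21448 transcript clusters, 17709 had 1 gene symbol, 3739 had none and 0 had several. The cluster with the highest mean was kept for each of 17687 genes. All 50 P450 clusters carried the RefSeq symbol of their Entrez ID. One limma 3.58.1 model (R 4.3.3) of the 3 groups gave moderated tests of 3 comparisons, with p-values adjusted by Benjamini-Hochberg over all genes and called under 0.05. The code was tested on simulated data.

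The members and gene lists were chosen with earlier results of these data known. Members were named by rule: the 12 with the highest mean signal, the 5 with the smallest p in each comparison and the 5 with the widest range within a group. Others were named for their function, or for groups that did not overlap, after their values were seen.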

Additional observations from a re-analysis of the deposited data

How the results depend on the processing

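Medians over the P450 members and counts of calls were recomputed with quantile normalization, median centring, filters on dim genes, the mean of clusters, another variance prior, 2 groups at a time, array weights, the replicate number as a block and each array left out. Alternatives chosen after seeing the data left out untreated replicate 2 together with quantile normalization or the trended prior, or left out 800 ng/ml replicates 2 and 3, where the lone array was assumed to vary like the other groups. The 295 alternative values for single members cover only the 5 members with the smallest p in each comparison. Of these values, 294 kept their direction and side of the threshold, and CYP4A11 at 200 ng/ml turned to 0.20 with array weights. The same weights shrank differences at 800 ng/ml against untreated cells without turning them, to −0.17 for CYP4A11, −0.11 for CYP2D6 and −0.09 for CYP1B1, against −0.69, −0.61 and −0.52 with equal weights. Those weights were 0.0399 for untreated replicate 2 and 10.7 for untreated replicate 1, so the untreated mean rested largely on 1 array. With them 732 genes were called at 800 ng/ml, 1971 at 200 ng/ml and 6 between the doses. They included 3 members at 800 ng/ml (CYP4X1, CYP2C8 and CYP2S1) and 5 at 200 ng/ml (CYP4X1, CYP2S1, CYP4F11, CYP4F12 and CYP2F1). These calls of members fall outside the 295 values above. The trended robust prior without untreated replicate 2 called 28 genes at 200 ng/ml and 13 between the doses. Leaving out 1 array at a time gave 0 to 12 genes at 800 ng/ml and 0 to 15 between the doses, with the highest counts without 800 ng/ml replicate 1, and 0 P450 members each time. The medians over members then ranged from −0.23 to 0.01 at 800 ng/ml, from −0.20 to 0.00 at 200 ng/ml and from −0.14 to −0.02 between the doses. With the replicate block, the medians were −0.16, −0.11 and −0.07 with 0 calls. Same-numbered arrays correlated at −0.253 to 0.113 in their deviations from group means, and differently numbered arrays at −0.238 to 0.268. Deviations of the untreated group followed its replicate 2, so pairs with untreated arrays cannot decide whether the numbers pair them. Between the SPARC groups, same-numbered arrays correlated at −0.046 to 0.034. No label says that the numbers pair arrays, and they were not taken to do so. The dim filters left 29 and 12 members. An offset before the logarithm was not run, as the values are already logarithmic. Without detection calls, it is not known which members lay above background.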
